A study of Arabidopsis thaliana with 22 samples.

Results

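Leaf transcriptomes of the Arabidopsis thaliana photorespiratory mutant hpr1 were compared between plants kept at 1% CO2 (HC) and plants moved to 0.038% CO2 (LC). The 4 libraries chosen are those labelled hpr1, 2 at HC and 2 at LC, of 22 in all. The line is hpr1-1, a single T-DNA insertion allele, and all plants, those of the control condition included, had been raised at 1% CO2. The move took place when a dark period ended, and mature leaves at growth stage 5.1, grown with 10 h of light and 14 h of darkness, were taken 8 h into the light. The remaining groups, used here only to show where hpr1 differs, are the wild type (3 libraries at each CO2 level) and the insertion lines shm1-2, glyk1-1 and pglp1-1 (2 libraries at each level, 1 allele per gene).

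Photorespiration recycles the phosphoglycolate that Rubisco forms when it fixes oxygen in place of CO2. The carbon passes from the chloroplast to the peroxisome and the mitochondrion and back, and hydrogen peroxide is formed on the way in the peroxisome. HPR1 encodes the peroxisomal hydroxypyruvate reductase, which turns hydroxypyruvate into glycerate, the step before glycerate kinase (GLYK). A cytosolic reductase, HPR2, can take over part of this step, and hpr1 plants are known to tolerate ordinary air better than most mutants of the cycle. High CO2 suppresses the oxygenation reaction, so mutants of the cycle can be raised in it. The labels address what the shift to low CO2 does to the transcripts of each genotype.

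The summed counts of the hpr1 libraries were 32453192 and 27295186 at HC and 5911382 and 91864826 at LC, so that LC replicate 1 was the shallowest of all 22 libraries, the deepest of which held 194460991. Levels are given as CPM, counts per 1000000 counts of a library scaled by its TMM factor, with HC replicates 1 and 2 first and LC replicates 1 and 2 second. Over the 13690 loci with a mean of at least 5 CPM in the hpr1 libraries, the rank correlation was 0.972 between the HC libraries. It was 0.913 between the LC libraries and 0.779 to 0.861 between HC and LC libraries, as a description of these 4 libraries. The LC libraries were also less alike in level across all tested loci. There, 2098 were over 2-fold higher in LC replicate 1 than in LC replicate 2 and 2168 over 2-fold the other way. Between the HC libraries the numbers were 636 and 1249. Replicates are named biological in the study's design text without further detail. The p-values therefore reflect only how far libraries scatter within groups, a spread estimated over all 10 groups and not from the 4 hpr1 libraries alone. In bulk leaf RNA, fewer cells of a type and less RNA per cell cannot be told apart.

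The HPR1 transcript (AT1G68010, chromosome 1, 25493193 to 25496053, TAIR10.1) was checked first. It stood at 1.49 and 1.33 CPM in the HC libraries and at 4.92 and 2.35 CPM in the LC libraries of hpr1. Every one of the 18 libraries of the other genotypes held between 67.4 and 818 CPM. The mean in hpr1 was 0.436% of the wild-type mean at HC (1.41 ± 0.115 against 324 ± 110 CPM, SD, n = 2 and 3) and 0.793% at LC (3.63 ± 1.82 against 458 ± 77.6 CPM), in accord with the labels. Within hpr1 the remaining transcript rose by 1.28 ± 0.39 (log2 fold change ± SE, edgeR quasi-likelihood test, adjusted p = 0.0407), from 52 and 40 counts to 35 and 227 counts. This call was lost when LC replicate 1 was left out (0.59), and it was also lost under 7 other settings.

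After the shift to low CO2, 16 of 24 detoxification, 13 of 25 carbon shortage, 12 of 21 jasmonate and 12 of 25 abscisic acid response genes rose in hpr1, while 102 of 159 cytosolic ribosomal protein genes fell. Of 20372 tested loci, 1788 (8.78%) rose and 1295 (6.36%) fell, 15.1% together, at an adjusted p under 0.05 (edgeR). Among the called loci, 1421 rose and 976 fell by more than 2-fold, and 407 rose and 80 fell by more than 8-fold. The median log2 fold change was 1.71 over the loci that rose, -1.33 over those that fell and 0.07 over all tested loci. Both LC libraries lay outside the range of the HC libraries for 3070 of the 3083 called loci and for 13340 (65.5%) of all tested loci. The number of calls rested on all 4 libraries: leaving out HC replicate 1 gave 32, HC replicate 2 gave 813, LC replicate 1 gave 1821 and LC replicate 2 gave 534. Directions were steadier, since 3082 of the 3082 main calls tested without HC replicate 1 and 3072 of 3081 without LC replicate 2 had the same sign.

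**Figure D1:**
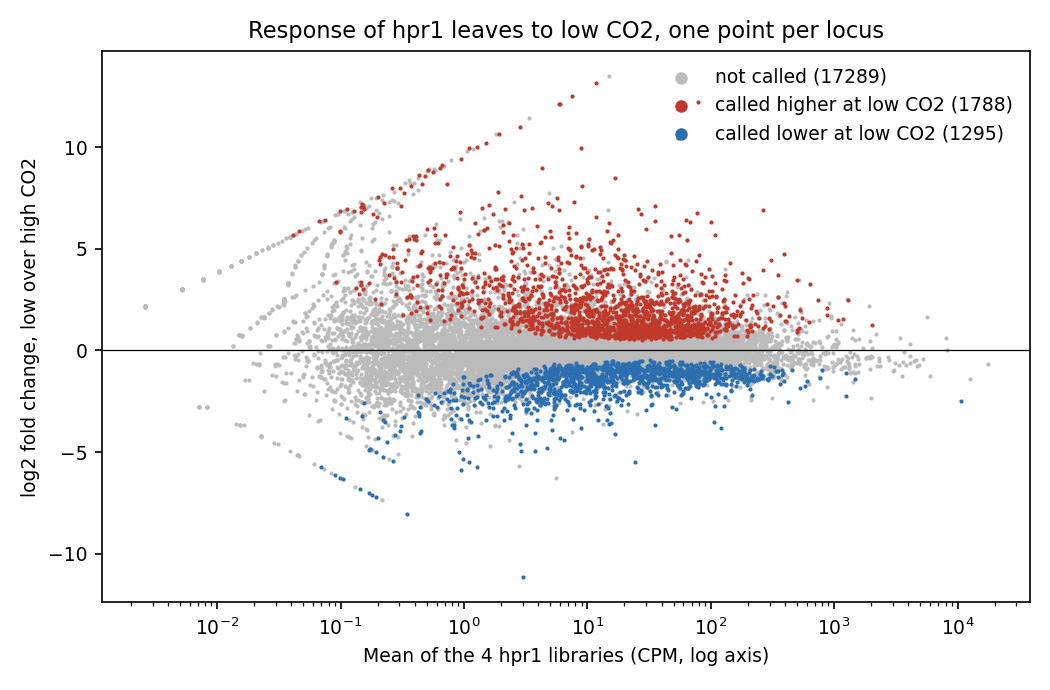
Log2 fold change between LC and HC in hpr1 (vertical axis) against mean level (horizontal axis, log scale) for the tested loci, with called loci in colour. The 1788 loci that rose reach larger fold changes than the 1295 that fell.

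Cytochrome P450, transcription factor and glycosyltransferase genes led the rises. CYP81D11, a P450 gene known to be induced by foreign chemicals and by cis-jasmone, had 2 and 0 counts at HC and 1203 and 14011 counts at LC (0.057 and 0 CPM, then 169 and 145 CPM). The ratio of the summed, scaled counts was 4761 with an exact 95% counting interval of 1318 to 39314, and the adjusted p of 1.57e-06 was the smallest in this comparison. DOGT1, a glucosyltransferase that acts on deoxynivalenol and brassinosteroids, stood at 1.03 and 1.83 CPM and then at 151 and 96.6 CPM (log2 fold change 6.44 ± 0.55, adjusted p = 3.61e-05). For both genes each LC library was far above each HC library. The rule for naming them required LC libraries outside the HC range, so the lack of overlap is no separate support. Intervals and floors here pool the counts of each group, where LC replicate 2 weighs most at LC, and cover counting error only.

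Several of the largest rises started from no count at HC. CYP94B3, which hydroxylates jasmonoyl-isoleucine, had 0 counts in both HC libraries and 61 and 3714 counts at LC. With counts pooled per group and a floor of 3 counts over the HC group, it was at least 787-fold higher. Pooling lets the deeper LC replicate 2 weigh most, so the value is not a bound for LC replicate 1 alone. The same floor gave at least 567-fold for NAC3 (AT3G29035), a NAC factor, at least 264-fold for the ERF factor gene RAP2.6, at least 136-fold for UGT73C1 and at least 83.4-fold for ILL5, an auxin conjugate hydrolase homologue. In all, 41 loci that rose had no count in either HC library and 64 had 1 to 3 counts over both, so their fitted fold changes depend on the prior count. MSRB7, a methionine sulfoxide reductase, went from 1 and 0 counts to 143 and 1502 counts, a ratio of 1029 (185 to 40687).

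The remaining genes among the 15 largest rises of loci with a symbol had few counts or low levels at HC. UGT74E2, a glucosyltransferase known to respond to hydrogen peroxide, stood at 0.086 and 0.0664 CPM at HC and at 205 and 14.4 CPM at LC (10.42 ± 1.38). RNS1, a secreted ribonuclease, was at 0.143 and 0.0332 CPM and then at 32.9 and 34.2 CPM (8.48 ± 2.05). The vegetative storage protein gene VSP2, a jasmonate marker, was at 3.44 and 5.35 CPM and then at 494 and 567 CPM (6.92 ± 1.67). The LC libraries were alike for RNS1 and VSP2 and far apart for UGT74E2. ABR1, GSTU11, CSLA01, TT19 and the chloroplast aldo-keto reductase gene ChlAKR complete the group, with LC levels between 0.141 and 16.5 CPM, and the anthocyanin transport gene TT19 was high in LC replicate 2 alone (0.141 and 11.4 CPM). GSTU11 had 0 and 3 counts at HC (ratio 40.5, 13.6 to 198), ChlAKR 0 and 6, ABR1 1 and 2 (ratio 87.4, 29.7 to 426) and TT19 1 and 1 (ratio 347, 95.8 to 2869).

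ADS1, XTH31 and GH9C2 were among the 10 largest falls of loci with a symbol in the annotation used and a mean of at least 5 CPM in 1 group. ADS1, an acyl desaturase gene, had 300 and 104 counts at HC and none at LC, at least 215-fold lower with counts pooled per group. XTH31, a xyloglucan-modifying enzyme, fell from 54.9 and 41.1 CPM to 0.281 and 1.47 CPM (-5.46 ± 0.90, adjusted p = 0.00482). The endoglucanase gene GH9C2 fell from 291 and 163 CPM to 23.1 and 9.49 CPM (-3.83 ± 0.66). Both LC libraries lay below both HC libraries in each of these genes, which the rule for naming them required. The expansin genes EXPA15, EXPB1 and EXPA5, the ethylene synthesis gene ACS4, PLP9, CYP71B22 and the replication factor gene MCM10 also belong to the 10 largest falls, with fold changes from -3.65 to -4.96.

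Among the same loci, the smallest adjusted p belonged to MIPS1, GT18, PDF2, LBD41 and CER2. PCO1, which that annotation lists by locus only and which is described with the low oxygen genes, had an adjusted p of 0.000148. MIPS1, which makes inositol phosphate from glucose phosphate, stood at 213 and 167 CPM and then at 24.2 and 31.9 CPM (-2.75 ± 0.27, adjusted p = 0.000148). GT18, a glycosyltransferase, was at 32.8 and 27.6 CPM and then at 6.19 and 5.75 CPM (-2.35 ± 0.26, adjusted p = 0.000404). CER2, needed for long wax chains, went from 20.8 and 22.2 CPM to 6.47 and 4.18 CPM (-2.06 ± 0.29). The replicates lay close together for all 3 of these genes.

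Genes of detoxification come first among the lists. Of 24 genes of xenobiotic and glutathione-dependent detoxification, 16 rose and none fell, with a median log2 fold change of 4.14 against 0.07 over all loci, and of 2.36 without LC replicate 1. Leaving out 1 library gave between 5 (without HC replicate 1) and 17 (without LC replicate 2) that rose. GSTU7, a tau class glutathione transferase, rose from 6.71 and 8.37 CPM to 121 and 64.5 CPM (3.62, adjusted p = 0.000404). AER, an alkenal reductase that removes reactive carbonyls, rose from 61.8 and 60.9 CPM to 323 and 376 CPM (2.51, adjusted p = 0.000961). The multidrug transporter gene DTX3 was at 0.143 and 0.0332 CPM and then at 29.9 and 0.93 CPM (7.30). Unlike AER, most members differed between the LC libraries: 20 of the 24 were over 2-fold higher in LC replicate 1 and none was over 2-fold higher in LC replicate 2. By family, chosen after the values were seen, 10 of 42 glutathione transferase genes rose, as did 25 of 126 P450 genes and 22 of 95 glycosyltransferase genes, while 0, 6 and 1 fell.

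Promoters of 3 detoxification genes are printed because the members of this list moved together and the TGACG core, the binding core of TGA factors, is known from such genes. Each runs 5′ to 3′ on the gene's strand, from 250 bases before to 50 bases after the annotated gene start (RefSeq, TAIR10.1), and capitals mark TGACG on either strand. They lie at chr3:10790504-10790803 (CYP81D11, minus strand), chr2:12618850-12619149 (GSTU7, minus strand) and chr4:16350154-16350453 (UGT73B1, minus strand).
CYP81D11: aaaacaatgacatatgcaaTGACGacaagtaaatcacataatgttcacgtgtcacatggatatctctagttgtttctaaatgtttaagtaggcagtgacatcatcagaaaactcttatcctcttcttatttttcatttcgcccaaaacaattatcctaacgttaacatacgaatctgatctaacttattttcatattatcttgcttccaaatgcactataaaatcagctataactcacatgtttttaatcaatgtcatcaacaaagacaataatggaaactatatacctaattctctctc
GSTU7: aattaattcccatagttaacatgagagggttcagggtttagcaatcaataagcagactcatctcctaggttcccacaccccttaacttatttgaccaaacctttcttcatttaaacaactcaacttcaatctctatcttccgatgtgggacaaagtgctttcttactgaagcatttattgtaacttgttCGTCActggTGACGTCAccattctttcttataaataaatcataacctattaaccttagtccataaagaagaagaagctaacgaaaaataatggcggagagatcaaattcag
UGT73B1: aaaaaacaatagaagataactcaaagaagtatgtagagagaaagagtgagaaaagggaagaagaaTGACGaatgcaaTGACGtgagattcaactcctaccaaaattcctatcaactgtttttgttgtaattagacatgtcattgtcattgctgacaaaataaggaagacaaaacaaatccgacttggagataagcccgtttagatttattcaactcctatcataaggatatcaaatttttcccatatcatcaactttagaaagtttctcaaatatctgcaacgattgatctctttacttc
The first bases of the matches lie at -231 in CYP81D11, at -61, -52 and -49 in GSTU7 (the last 2 overlap) and at -185 and -173 in UGT73B1, counted from 0 at the gene start. TGACG occurred in 15 of 24 promoters of the list (62.5%), in 28.2% of those of loci that rose, in 22.3% of those of loci that fell and in 23.1% of all 27443 promoters. Across the other lists the share ran from 0% (stomatal movement) to 73.3% (circadian clock), so a high share is not particular to detoxification. A match is a description of these letters and not a binding site.

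Genes of the mitochondrial retrograde response, which the nucleus switches on when mitochondrial function is disturbed, were next. Of 14, 7 rose and none fell (median 2.203, and 1.103 without LC replicate 1), and without 1 library the number that rose ran from 0 (without HC replicate 1) to 7. AOX1A, the alternative oxidase of the respiratory chain, rose from 23.2 and 33.2 CPM to 230 and 76.0 CPM (2.46, adjusted p = 0.00488). SOT12, a sulfotransferase, rose from 13.4 and 16.8 CPM to 273 and 36.7 CPM (3.35). NAC013, a regulator of this response, rose from 6.94 and 8.66 CPM to 52.0 and 16.4 CPM (2.12). In each of the 3 genes LC replicate 1 was the higher library, and 11 of the 14 members were over 2-fold higher in it than in LC replicate 2.

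The AOX1A promoter (chr3:7906271-7906570, plus strand, same window) is shown for the mitochondrial dysfunction motif, searched on both strands as CTTG, any 5 bases and then CACG or CAAG, and marked in capitals.
AOX1A: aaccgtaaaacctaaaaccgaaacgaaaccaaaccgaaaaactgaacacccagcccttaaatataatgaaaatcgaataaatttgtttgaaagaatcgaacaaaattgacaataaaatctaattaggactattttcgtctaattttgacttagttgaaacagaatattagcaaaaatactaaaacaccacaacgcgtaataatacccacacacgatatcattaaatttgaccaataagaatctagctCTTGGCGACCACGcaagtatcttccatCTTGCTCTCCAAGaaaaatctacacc
The matches begin at -3 and 24. The motif was present in 9 of 14 promoters of the list (64.3%) and in 1.42% of all promoters. The list was built from genes known to be controlled through this motif, so the share describes the list.

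Of 17 tested genes of peroxide and oxidative stress, 6 rose and none fell (median 1.46), and without 1 library 0 to 5 rose while up to 2 fell. CAT2 (AT4G35090), the leaf catalase that removes photorespiratory hydrogen peroxide, rose from 192 and 233.95 CPM to 438 and 733 CPM (1.46, adjusted p = 0.0314). ZAT12, a zinc finger factor known to respond to peroxide, rose from 0.373 and 3.55 CPM to 39.6 and 14.0 CPM (3.77). OXI1, a kinase of peroxide signalling, rose from 0.229 and 0.93 CPM to 21.7 and 1.85 CPM (4.32). CAT2 was highest in LC replicate 2, whereas ZAT12 and OXI1 were highest in LC replicate 1. The ascorbate peroxidase gene APX1 stood at 317 and 402 CPM and then at 1178 and 812 CPM without passing the threshold (1.47, adjusted p = 0.0684).

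Salicylic acid and defence genes differed widely between replicates. Of 20, 3 rose (ICS1, NPR3 and SARD1) and none fell, with a median of 1.67 that was 0.12 without LC replicate 1, and without 1 library 0 to 5 rose. Beside this, 18 of the 20 were over 2-fold higher in LC replicate 1 than in LC replicate 2, and 16 were over 2-fold higher in HC replicate 2 than in HC replicate 1. ICS1, which makes the salicylic acid precursor, stood at 11.4 and 48.4 CPM and then at 333 and 49.5 CPM (2.67, adjusted p = 0.0441). The marker gene PR1 stood at 4.39 and 239 CPM at HC and at 770 and 199 CPM at LC, so that its groups overlapped. The part of this replicate difference in the other lists was not tested.

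Genes induced by carbon shortage were looked at next. Of 25, 13 rose and none fell (median 1.61), with 21 above the HC range in both LC libraries, where 65.5% of all loci lay above or below it. Without 1 library, 13 rose when LC replicate 1 was left out but 1 or 0 when any other library was. DIN10, a raffinose synthase homologue induced in darkness, rose from 16.0 and 29.5 CPM to 116 and 374 CPM (3.43, adjusted p = 0.0129). ASN1, the dark-induced asparagine synthetase, rose from 3.58 and 4.05 CPM to 45.4 and 103 CPM (4.25). The hexose transporter gene STP1 rose from 29.3 and 45.5 CPM to 88.9 and 348 CPM (2.55). For these genes LC replicate 2 was the higher library, the reverse of the detoxification list, and 12 of the 25 members were over 2-fold higher in it than in LC replicate 1. DIN1, TPS8, TPS9, TPS10, TPS11, IVD, BZIP63, BT2, DIN2 and DIN9 make up the rest of the genes that rose.

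Senescence and autophagy genes are related groups. Of 11 tested senescence genes 5 rose and none fell (median 2.00, and 0 to 4 rose without 1 library), among them SGR1, which starts chlorophyll breakdown, from 7.20 and 8.63 CPM to 31.6 and 31.8 CPM (2.00, adjusted p = 0.00533). All 15 genes whose annotation names autophagy, the recycling of cell contents in the vacuole, lay above the HC range in both LC libraries. Of all tested loci, 65.5% lay above or below that range. Of the 15 autophagy genes, 9 rose (median 0.86, and 0.545 without LC replicate 2). ATG8H rose from 3.76 and 4.35 CPM to 12.9 and 9.30 CPM (1.44, adjusted p = 0.0168), and ATG8F from 51.2 and 64.9 CPM to 104 and 238 CPM (1.56). Both encode the small protein that coats autophagosome membranes. Among NAC factor genes 17 of 52 rose and none fell, with NAC032 going from 1.23 and 2.56 CPM to 28.4 and 20.0 CPM (3.67), and among WRKY factor genes 10 of 44 rose and none fell. The autophagy, NAC and WRKY groups were chosen after their values were seen.

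**Figure D2:**
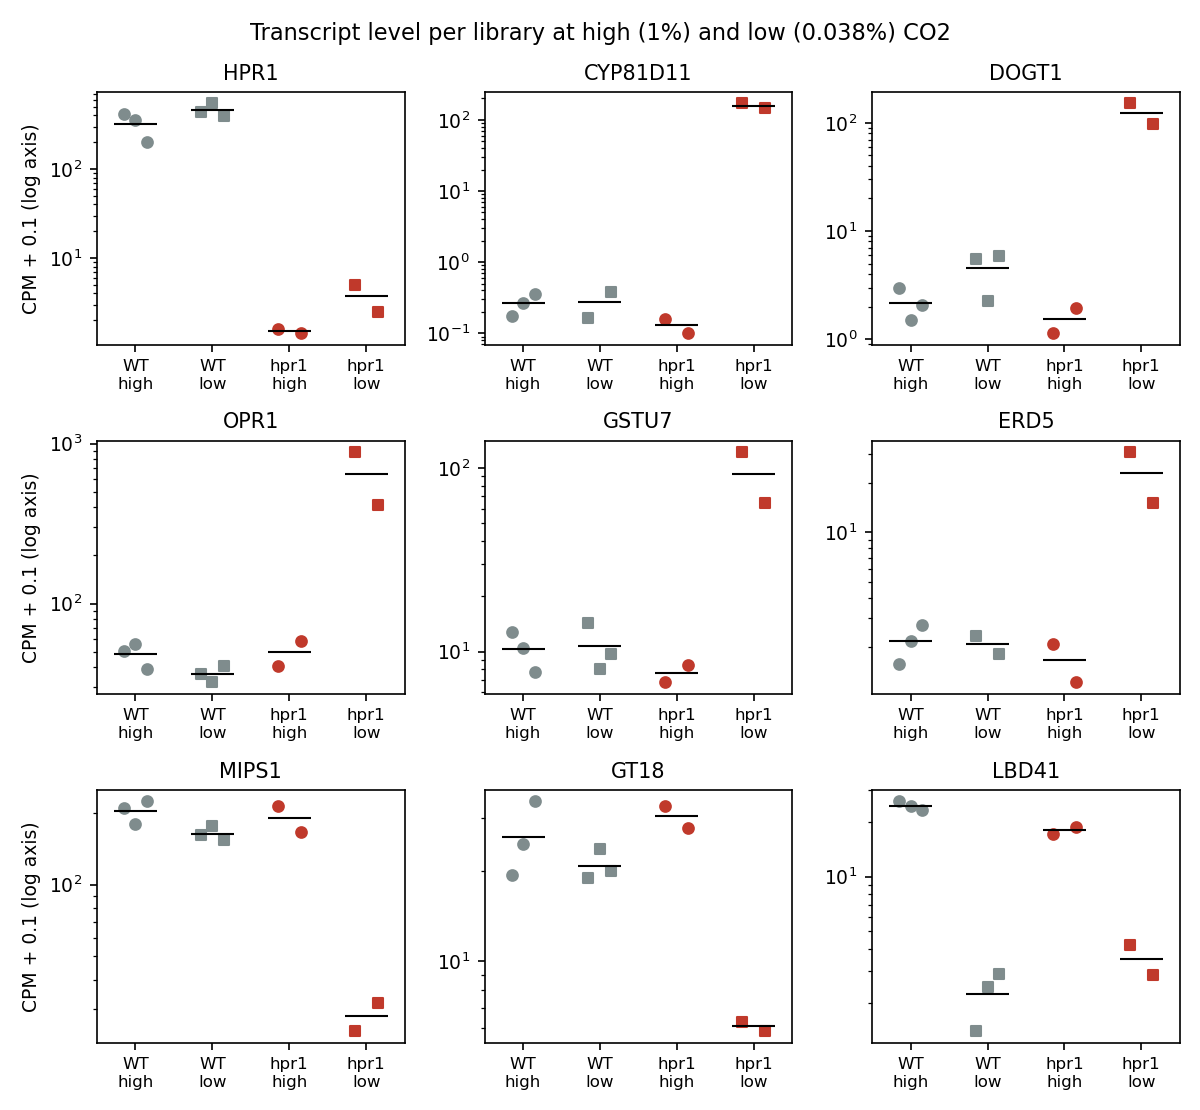
CPM plus 0.1 on a log axis in each wild-type (grey) and hpr1 (red) library for chosen genes, with HC libraries as circles, LC libraries as squares and group means as lines. The hpr1 LC libraries of CYP81D11, at 169 and 145 CPM, stand above all others; wild-type LC replicate 3 is left out where its row was displaced.

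Hormone genes followed. Of 21 jasmonate genes, 12 rose and none fell (median 2.12), against 0 to 8 without 1 library. AOC1, an allene oxide cyclase of jasmonate synthesis, rose from 18.6 and 35.2 CPM to 393 and 790 CPM (4.42, adjusted p = 0.0147). JAZ10, a repressor induced by jasmonate itself, rose from 0.287 and 0.863 CPM to 7.73 and 20.8 CPM (4.68). MYC2, the central activator, rose from 39.0 and 57.5 CPM to 164 and 254 CPM (2.12). All 3 were higher in each LC library than in each HC library, and AOS, OPR3, JAZ1, JAZ2, JAZ5, JAZ7, JAZ8, VSP1 and VSP2 also rose. OPR1 and OPR2, reductases related to OPR3 but counted in the detoxification list, rose from 40.7 and 58.7 CPM to 879 and 414 CPM (3.70 ± 0.41, adjusted p = 0.000404) and from 5.53 and 4.65 CPM to 60.5 and 46.8 CPM (3.39 ± 0.36).

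Of 25 tested abscisic acid response genes, 12 rose and none fell (median 1.36), against 0 to 4 without 1 library. HB-7, a homeobox factor of this response, rose from 2.95 and 3.15 CPM to 38.9 and 70.9 CPM (4.17, adjusted p = 0.0268). ABF4, a factor that binds abscisic acid response elements, rose from 17.1 and 20.1 CPM to 39.1 and 59.3 CPM (1.38, adjusted p = 0.00581). The signalling phosphatase genes ABI1, ABI2, HAB1 and HAI1 rose as well. The wild-type median of this list was 1.30 without any member called, and the test of the difference between the genotypes called no member.

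Of 17 anthocyanin and flavonoid genes, 2 rose (TT19 and PAP2, AT1G66390) and none fell, so that 11.8% rose, against 8.78% of all loci. The list median was 2.37, and 15 of the 17 were over 2-fold higher in LC replicate 2 than in LC replicate 1. Without LC replicate 2 the median was -0.45. The wild-type median was 3.81 with no member called, and the summed level there was high in LC replicate 1 alone. That level was 0.269% in wild-type LC replicate 1, 0.0174% in replicate 2 and 0.0123% in replicate 3, not counting any displaced rows. The wild-type HC libraries held 0.0122% to 0.0218%. Of 15 clock genes 4 rose (TOC1, ELF3, ELF4 and RVE1) and none fell (median 0.67). TOC1, an evening clock component, rose from 82.0 and 86.8 CPM to 156 and 203 CPM (1.09, adjusted p = 0.0330), and RVE1 started from 0 and 2 counts. Among 6 carbonic anhydrase genes CA3 rose from 1.66 and 1.49 CPM to 14.8 and 21.6 CPM (3.53) and CA6 from 11 and 17.9 CPM to 53.7 and 118 CPM (2.57), while the other 4 did not pass.

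Few genes of the photorespiratory cycle itself were called by edgeR. Of 32 genes, 3 rose (9.38%) and 2 fell (6.25%), shares close to the 8.78% and 6.36% of all loci, and the median was 0.02. In both LC libraries 12 lay above and 13 below the HC range, where 65.5% of all loci lay outside it. DESeq2 called 6 higher and 3 lower, so few calls do not show that levels stayed the same. Those that rose were CAT2, HPR1 and GOX3, a glycolate oxidase isoform with 0 and 1 counts at HC and 5 and 82 counts at LC (ratio 54.4, 9.52 to 2175). The chloroplast dicarboxylate transporters, which exchange oxoglutarate, malate and glutamate for ammonia refixation, fell. DIT1 went from 635 and 522 CPM to 231 and 173 CPM (-1.52, adjusted p = 0.0220) and DIT2.1 from 209 and 191 CPM to 104 and 84.2 CPM (-1.08, adjusted p = 0.0293). Without 1 library, 0 to 3 members rose and 0 or 1 fell.

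Other steps of the cycle gave no call by edgeR. The main glycolate oxidase gene GOX1 stood at 598 and 664 CPM and then at 637 and 1123 CPM (0.45, adjusted p = 0.220). Transcripts of glycine decarboxylase, the mitochondrial complex that releases CO2 and ammonia, went in different directions, with GLDP1 at 933 and 968 CPM and then 1028 and 2730 CPM (0.98, adjusted p = 0.0889) and GLDT at 730 and 704 CPM and then 441 and 425 CPM (-0.73, adjusted p = 0.413). AGT1, the serine and glyoxylate aminotransferase that forms hydroxypyruvate, stood at 632 and 685 CPM and then at 991 and 1561 CPM (0.96, adjusted p = 0.0622). For AGT1 and GLDP1 both LC libraries were above both HC libraries although the test did not pass. PGLP1 and a near-identical copy share reads, and their values are uncertain (-0.26 and -0.73, neither called).

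The enzymes that could replace HPR1 did not rise. Per length, on the authors' RPKM scale, HPR2 stood at 44.6 and 47.3 at HC and at 36.9 and 48.9 at LC, well above HPR3, the remaining reductase, at 2.83, 3.39, 3.02 and 1.95. In CPM, HPR2 was at 48.5 and 49.96 and then at 35.7 and 54.2, and its groups overlapped (-0.13, adjusted p = 0.793). The glyoxylate reductase gene GLYR2 stood at 66.5 and 55.3 CPM and then at 23.48 and 20.997 CPM, below the HC range in both libraries but not called (-1.46, adjusted p = 0.0543).

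Photosynthesis transcripts were lower in level with few calls. None of 41 light harvesting and photosystem genes was called by edgeR and 1 was called lower by DESeq2, although 39 lay below both HC libraries and the median was -0.59. Their summed CPM made up 14.6% and 14.1% of the scaled total at HC and 9.43% and 10.0% at LC. CAB3, a chlorophyll-binding antenna gene, stood at 8893 and 8112 CPM and then at 4313 and 2729 CPM (-1.27, adjusted p = 0.252). Of 14 chlorophyll synthesis genes 2 fell (median -1.04) and 12 lay below both HC libraries. Beside this count and that of the light harvesting genes, 65.5% of all loci lay above or below the HC range in both LC libraries. CHLG, the chlorophyll synthase, fell from 222 and 213 CPM to 72.1 and 88.8 CPM (-1.46, adjusted p = 0.0374), and GSA1, which makes aminolevulinate, fell from 208 and 200 CPM to 111 and 87.3 CPM (-1.04, adjusted p = 0.0385). Neither call held when any 1 of the 4 libraries was left out.

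Of 21 Calvin-Benson cycle genes 1 rose and 1 fell (4.76% each, against 8.78% and 6.36% of all loci), with a median of -0.44. The triose phosphate isomerase gene TIM fell from 467 and 441 CPM to 232 and 222 CPM (-1.0, adjusted p = 0.0273), and CP12-3, a regulator homologue, rose from 0.975 and 1.86 CPM to 3.80 and 6.12 CPM (1.85). The major Rubisco small subunit gene RBCS1A stood at 18265 and 18184 CPM and then at 7165 and 6666 CPM, below the HC range but not called (-1.40, adjusted p = 0.0865). Of 28 starch and sucrose genes 2 rose (7.14%, BAM1 and SPS4F) and 1 fell (3.57%, PGI1), against the same shares of all loci. Of 15 nitrogen assimilation genes NRT2.1, GLN1;1 and GLN1;4 rose and ASN2 fell. GLN1;1, a cytosolic glutamine synthetase, rose from 126 and 210 CPM to 659 and 464 CPM (1.74, adjusted p = 0.0268), whereas the chloroplast isoform gene GLN2 stood at 1338 and 1214 CPM and then at 859 and 814 CPM (-0.61, adjusted p = 0.229).

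**Figure D3:**
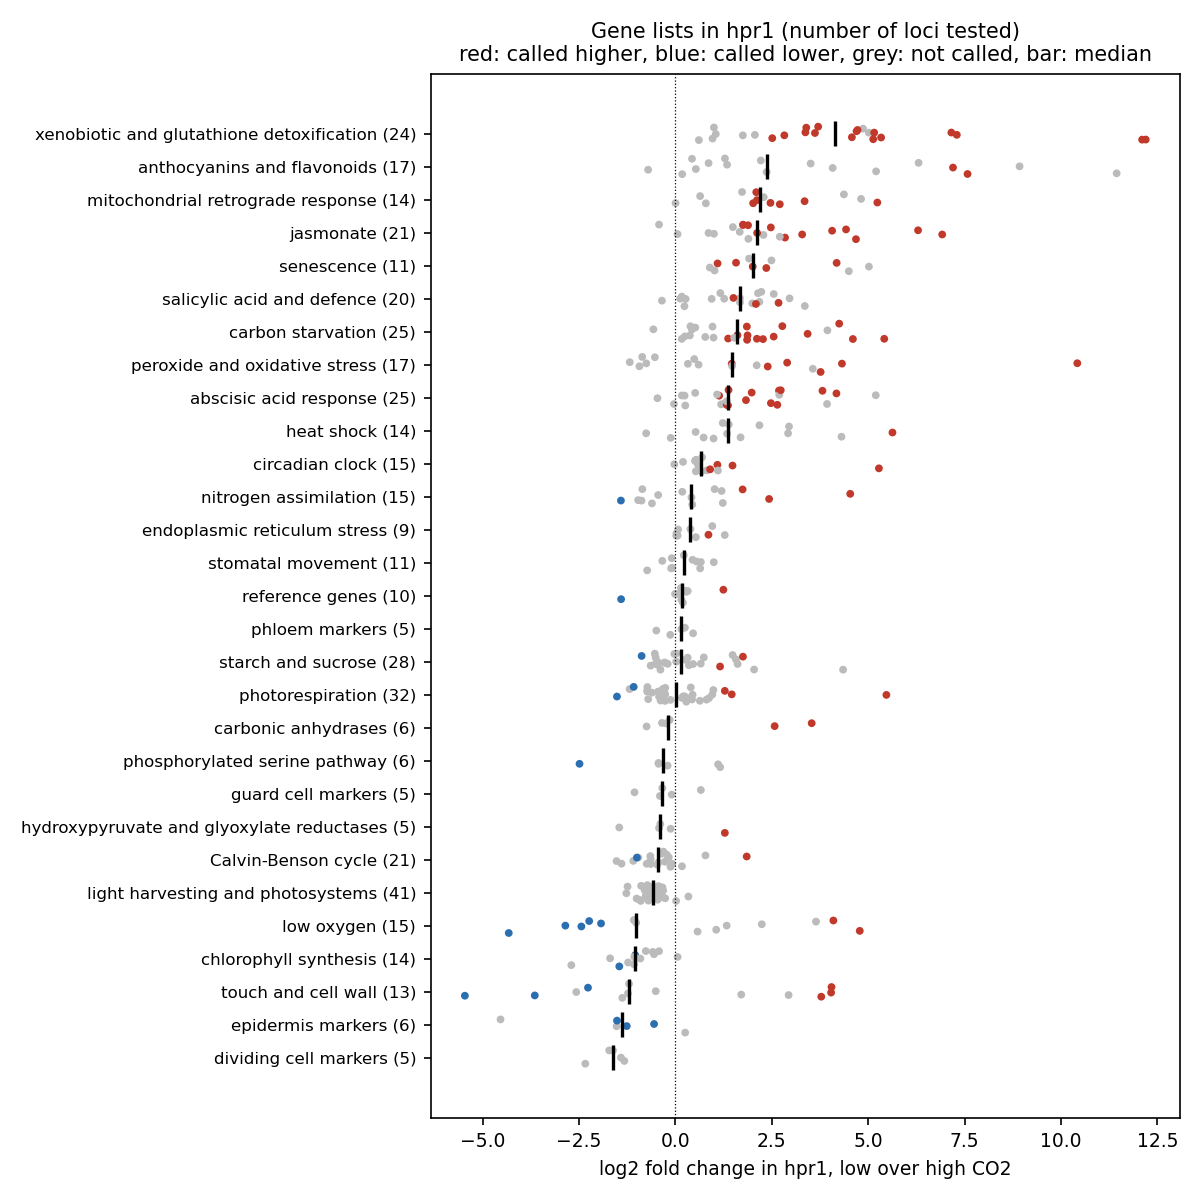
Log2 fold change between LC and HC in hpr1 for each tested gene of the lists, with the number of loci tested in brackets. Genes called higher are red, those called lower blue and the others grey, and bars mark the medians. The detoxification list has 16 of 24 genes higher, and the light harvesting list has no call in either direction.

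Low oxygen genes were the list with the most members that fell. Of 15 tested, 2 rose and 5 fell (median -1.02), and without 1 library 2 or 3 fell and 0 to 3 rose. The median was -0.26 without LC replicate 2 and turned to 0.89 with counts thinned to the shallowest library. PCO1, an oxygen-dependent cysteine oxidase that destabilises the factors of this response, fell from 11.1 and 11.8 CPM to 0.422 and 0.620 CPM (-4.32, adjusted p = 0.000148). LBD41, a hypoxia marker, fell from 17.2 and 18.7 CPM to 4.08 and 2.78 CPM (-2.44 ± 0.34, adjusted p = 0.00149). HB1, a haemoglobin, PCO2 and ACO1 also fell, and SRO5 and HUP54 rose. Both PCO1 and LBD41 also fell in the wild type, where the log2 fold changes were -5.11 and -3.54.

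Families tied to growth differed among themselves. Of 21 expansin genes, which loosen cell walls, 9 fell and 1 rose (median -1.42). Of 12 tubulin genes 8 fell and none rose (median -1.02), with TUA4 going from 359 and 276 CPM to 128 and 106 CPM (-1.44, adjusted p = 0.0105). Of 41 arabinogalactan protein genes 9 fell and 2 rose. Without HC replicate 1 no member of these 3 families was called. Families were matched by words of the annotation, and the cyclin family includes cyclin-dependent kinases and the cycling DOF factors CDF1, CDF2 and CDF3. Of its 49 genes 3 fell (6.12%, against 6.36% of all loci) and 1 rose, and of 20 kinesin genes 1 fell and none rose. Of 39 genes matched as core histones by their annotation 1 fell (2.56%) and 4 rose (10.3%), against 6.36% and 8.78% of all loci. Of 19 xyloglucan endotransglucosylase genes 2 fell and 5 rose. All 7 families were chosen after values of these data were seen. In the touch and cell wall list 3 of 13 rose (TCH4, CML38 and XTH24) and 3 fell (XTH31, EXPA5 and EXPA1), with a median of -1.20 (-0.37 without LC replicate 2).

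Ribosomal protein genes formed the largest group that fell. Of 159 genes annotated as cytosolic ribosomal proteins 102 fell and none rose, with a median of -1.13 against 0.07 over all loci. Both LC libraries lay below both HC libraries for 149 of them, where 65.5% of all loci lay above or below the HC range. RPL24A, a protein of the large subunit, fell from 129 and 108 CPM to 39.4 and 31.1 CPM (-1.75, adjusted p = 0.0136). The summed CPM of the 159 genes was 1.69% and 1.502% of the scaled total at HC and 0.750% and 0.685% at LC, and both LC libraries lay below both HC libraries. Leaving out HC replicate 1 gave 0 that fell, HC replicate 2 gave 19, LC replicate 1 gave 38 and LC replicate 2 gave 1, with medians from -1.04 to -1.30. Over all 331 genes whose annotation names a ribosomal protein, those of organelles included, 156 fell and 2 rose. The family was chosen after its values were seen.

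Ribosomal transcripts are short, so the same comparison was made by gene length. Within length classes up to 1500 bases, the median was between -0.94 and -1.22 for cytosolic ribosomal genes and between 0.01 and 0.18 for the other loci. The wild-type median of the family was -0.46, and the test of the difference between hpr1 and the wild type called no member. The response was lower in hpr1 than in shm1 for 64 members and higher for 2, where the shm1 median was 0.04 with 21 genes higher and 17 lower at LC. Against glyk1 (median -0.38) it was lower for 21 members and higher for none, and against pglp1 (median -0.68) lower for 7 and higher for 2. Over all tested loci, the hpr1 response was lower at 18.3%, 10.8% and 13.3% against shm1, glyk1 and pglp1. It was higher at 20.7%, 13.4% and 16.1%. The summed share of the ribosomal family also varied among the HC libraries of the other genotypes, from 0.675% to 1.77%.

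**Figure D4:**
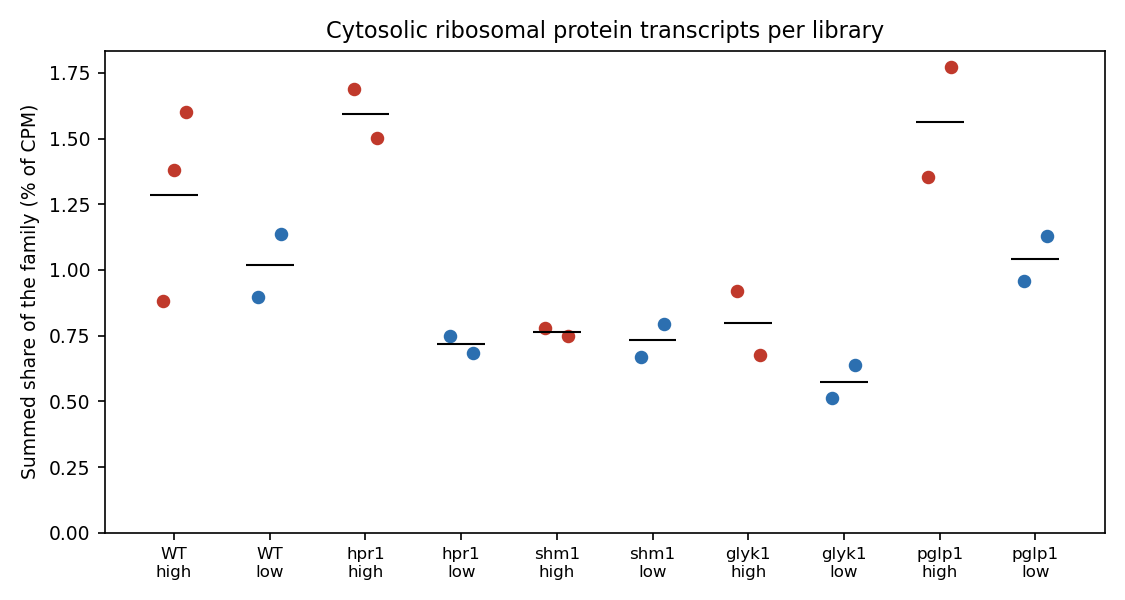
Summed CPM of the 159 cytosolic ribosomal protein genes as a percentage of the scaled total, 1 point per library, by genotype and CO2 level, without wild-type LC replicate 3. The hpr1 LC libraries, at 0.750% and 0.685%, lie below its HC libraries, at 1.69% and 1.502%.

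The telo-box, AAACCC followed by TA on either strand, is a motif known from ribosomal protein genes and was chosen here after the family was seen to fall. In the same promoter window it occurred in 76 of 159 promoters of the family (47.8%), in 48% of those of its 102 members that fell, in 12.2% of those of all loci that fell, in 2.55% of those of loci that rose and in 6.22% of all promoters.

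Marker lists of other cell types were checked beside these groups. Of 6 epidermis markers, ATML1, PDF2 and FDH (AT2G26250) fell (median -1.39), with ATML1, an epidermal identity factor, at 68.1 and 68.0 CPM and then at 28.7 and 28 CPM (-1.26, adjusted p = 0.0150). The summed level of the list was 0.0479% and 0.0521% at HC and 0.0312% and 0.0438% at LC. None of 5 guard cell markers (median -0.34), 5 phloem markers (median 0.15) or 5 dividing cell markers was called by edgeR. All 5 dividing cell markers lay below both HC libraries (median -1.62), where 65.5% of all loci lay above or below the HC range, and DESeq2 called 1. Of 5 floral and 5 root markers 1 each was tested and neither was called, and the summed level was at most 0.000136% of the scaled total for the floral and 0.000508% for the root list, with most markers at or near 0. The part of any cell type in the falls was not tested. Of 10 reference genes, UBQ10 rose from 1056 and 1335 CPM to 2460 and 3199 CPM (1.24) and EF1A fell from 2348 and 1970 CPM to 811 and 815 CPM (-1.41).

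Of the remaining lists, heat shock had 1 gene that rose of 14 tested (7.14%, HSP17.6C) and endoplasmic reticulum stress 1 of 9 (11.1%, BZIP28). Of all loci 8.78% rose. Stomatal movement had 0 of 11 that rose by edgeR and 1 by DESeq2, and the phosphorylated serine pathway had 1 of 6 that fell (PSAT2). PSAT2, a phosphoserine aminotransferase, went from 13.1 and 9.86 CPM to 2.67 and 1.65 CPM (-2.49, adjusted p = 0.0170).

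The response of hpr1 was then tested against that of the wild type. In the wild type 4 loci (0.0196%) were called between LC and HC, 1 higher (0.00491%, TCH4) and 3 lower (0.0147%, PCO1, LBD41 and AT3G06435), all 4 of which were called the same way in hpr1. The difference between the responses was called at 24 loci (0.118%), 21 (0.103%) with a higher and 3 (0.0147%) with a lower response in hpr1. All 24 were also called within hpr1. CYP81D11 had the largest difference (12.15 ± 1.03, adjusted p = 0.000175), with a wild-type fold change of 0.04. Among the others were DOGT1 (5.33 ± 0.61, adjusted p = 0.00209, wild type 1.11), OPR1 (4.11 ± 0.50, adjusted p = 0.00323, wild type -0.41) and OPR2 (3.34 ± 0.44, adjusted p = 0.00662, wild type 0.06). The detoxification list held 4 of these loci among its 24 members. The 3 loci with a lower response were MIPS1 (-2.43 ± 0.33, adjusted p = 0.00752, wild type -0.32), GT18 (-2.03 ± 0.33, adjusted p = 0.0263) and SGB1 (-2.001 ± 0.35, adjusted p = 0.0376).

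ERD5, DHAR2 and UGT73B1 were further loci with a larger response in hpr1. ERD5, a proline dehydrogenase, stood at 2.01 and 1.13 CPM and then at 30.5 and 15.1 CPM in hpr1 (difference 3.83 ± 0.54, adjusted p = 0.0110). DHAR2, a dehydroascorbate reductase, stood at 15.7 and 17.0 CPM and then at 120 and 67.5 CPM (2.66 ± 0.37, adjusted p = 0.00752). UGT73B1, whose promoter is printed above, was at 9.95 and 9.23 CPM and then at 107 and 112 CPM (3.19 ± 0.56, adjusted p = 0.0376). In the 3 genes each LC library of hpr1 exceeded each HC library. Of the 21 promoters of loci with a larger response 10 held TGACG (47.6%). With only the hpr1 and wild-type libraries in the fit, edgeR called no locus (1447 at an unadjusted p under 0.05), so these 24 calls rest on the spread estimated over all 10 groups, while DESeq2 on all libraries called 348. Leaving out 1 library gave between 1 call (without hpr1 HC replicate 1) and 207 calls (without wild-type LC replicate 1), and 101 without hpr1 LC replicate 2.

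The absence of a call elsewhere does not show equal responses. Of the 1788 loci that rose in hpr1, 81.8% had a positive fold change in the wild type, against 43.2% of all loci, with a median of 0.32. Of the 1295 that fell, 94.1% had a negative one, against 56.4% of all loci, with a median of -0.45.

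**Figure D5:**
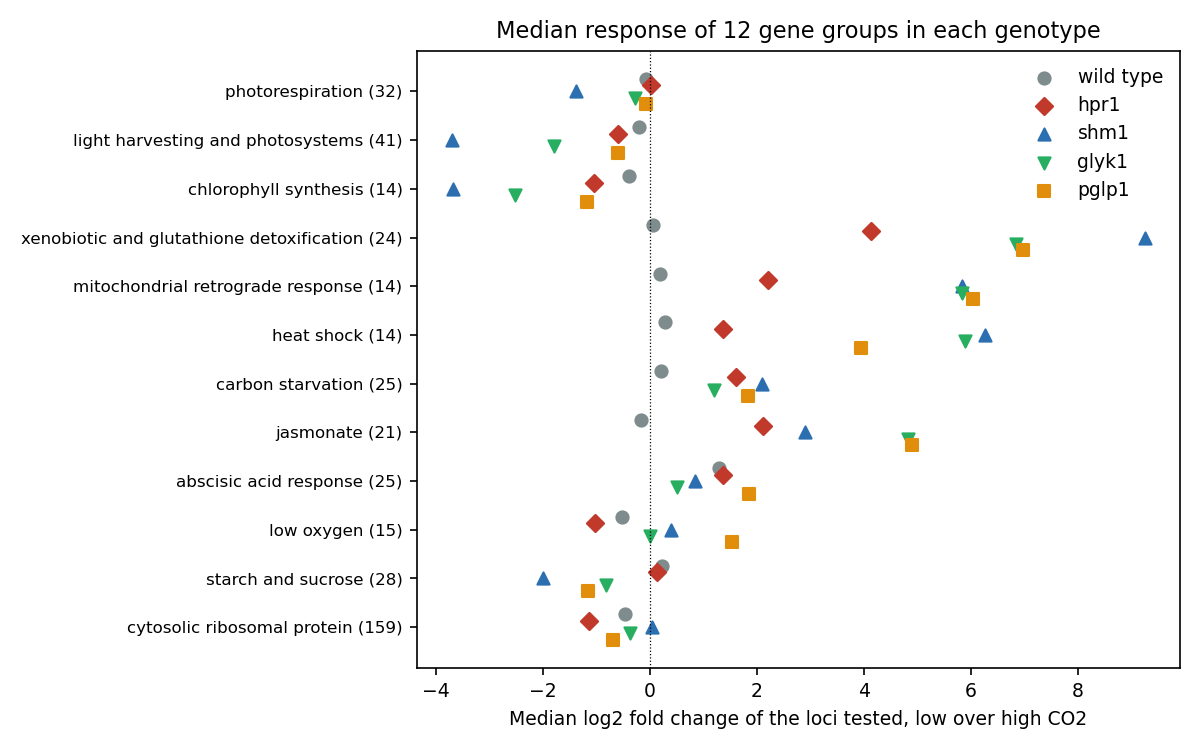
Median log2 fold change between LC and HC of gene lists and families in each genotype. For detoxification the hpr1 median of 4.14 lies between those of the wild type (0.06) and shm1 (9.26).

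Against the other mutants hpr1 had the fewest calls of its own: 13296 loci (65.3%) were called in shm1, 11211 (55%) in glyk1 and 11206 (55%) in pglp1, against 3083 (15.1%). Higher at LC were 33.2% of the tested loci in shm1, 25.4% in glyk1 and 26.4% in pglp1, and lower were 32%, 29.7% and 28.6%. Depth differs between these libraries, which are set side by side here. Of the 1788 loci that rose in hpr1, 1399 (78.2%) also rose in shm1, 1301 (72.8%) in glyk1 and 1291 (72.2%) in pglp1, which are 20.7%, 25.2% and 24% of the loci that rose there. Of the 1295 that fell, 916 (70.7%), 902 (69.7%) and 811 (62.6%) also fell, 14%, 14.9% and 13.9% of the falls there. In all 4 mutants 1026 loci rose and 578 fell. The response itself differed between hpr1 and shm1 at 7942 loci (39%), between hpr1 and glyk1 at 4933 (24.2%) and between hpr1 and pglp1 at 5998 (29.4%).

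Light harvesting genes show the contrast with shm1. The list median was -3.70 in shm1, with 40 of 41 genes lower, and 39 of the 41 responses were less negative in hpr1. Detoxification genes had a median of 9.26 in shm1, and 16 of the 24 responses were smaller in hpr1. Of the genes that rose in hpr1, 204 rose significantly less than in each of the other 3 mutants, and 39 genes that fell did so less than in each. These counts use the same 4 hpr1 libraries in all 3 differences, so they are not independent of each other.

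A smaller set moved further in hpr1 than in each other mutant, 38 upwards and 18 downwards. MEE14 stood at 192 and 239 CPM and then at 483 and 1205 CPM (1.97 ± 0.48, against -0.84, -0.70 and -1.24 in shm1, glyk1 and pglp1). CYP71B4, ASD1, an arabinofuranosidase, UGT85A5 and MYB48 lead the rises with it. LBD41 and HB1, the low oxygen genes above, CYP71B22, AGP20 and BAG1, a chaperone regulator, lead the falls. For LBD41 the fold changes in shm1, glyk1 and pglp1 were -0.54, -0.64 and 1.54. At 5 loci the called direction in hpr1 was opposite to that called in each of the 3 other mutants. XERICO, a RING protein gene tied to abscisic acid, was at 17.8 and 18.5 CPM and then at 30.2 and 51.3 CPM in hpr1 (1.18 ± 0.37, against -0.97, -1.62 and -2.51), and MYB48, MEE11 and WIP2 had the same pattern. AT2G03240 fell in hpr1 (-0.73 ± 0.22) and rose in the others. These sets were chosen after the values were seen, and for the rises MEE14, CYP71B4 and XERICO LC replicate 2 was the higher library. The wild type was not part of these comparisons. The genes named here were not called different from the wild-type response, and LBD41 fell further in the wild type, as given above.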

How the data were processed

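RNA of mature leaves was sequenced from 22 libraries in 10 groups (5 genotypes at 2 CO2 levels), 3 per group in the wild type and 2 in each mutant, and each library's title gave its group. Libraries were made from polyadenylated RNA and read from one or both ends, per the labels' protocols, without a statement of the mode for each. The submitters' processing notes list CASAVA 1.8, edgeR and the TAIR9 and TAIR10 annotations, whereas aligner and strand setting are not given in the sources used here. The authors' deposited table holds, per the file headers, a raw read count and an RPKM per locus and library, the authors' mean RPKM, and the authors' q-value and log2 fold change per comparison. A deposited length column did not match its rows and was not used.

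Of 25680 loci, 4915 rows (19.139%) of wild-type LC replicate 3 were displaced against their neighbours, so these loci lacked that library, and 16759 loci were fitted in 22 libraries and 3613 in 21. Summed counts ran from 5911382 to 194460991 per library, so a count of 0 limits low levels least well in hpr1 LC replicate 1. Counts were filtered with filterByExpr, scaled by TMM and tested with edgeR 4.0.16 (robust quasi-likelihood test, means of 10 groups, Benjamini-Hochberg adjustment over all tested loci, threshold 0.05). All groups share the estimate of the spread because hpr1 has 2 libraries per level. Differences between genotypes are interaction contrasts of this fit. The fit was tested on simulated data with known changes. Alternatives were DESeq2 1.42.0, its size factors in edgeR, no filter or a stricter one, all rows as deposited, thinned counts, a replicate block, only the groups compared, and leaving out each library.

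Genes named are, among called loci with an LC range outside the HC range and a mean of at least 5 CPM in 1 group, the 15 largest rises, 10 largest falls and 5 smallest p in each direction with a symbol, all called members of the lists, HPR1, and the loci that differ from the wild type. Further genes were named after their values were seen. Members and lists were chosen with earlier results of these data known, and the families, the telo-box and the sets defined against the other mutants after seeing values here. Promoters came from RefSeq (TAIR10.1, 27443 windows), where 25479 of the table's loci matched RefSeq genes. The same-numbered libraries of hpr1 were not treated as pairs.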

Additional observations from a re-analysis of the deposited data

Results flagged for a closer look

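The results below stood out because the response to low CO2 differed between hpr1 and another genotype by a test of the difference itself, the interaction contrast of the edgeR fit at an adjusted p under 0.05. All values are differences of log2 fold changes, hpr1 minus the other genotype. No explanation was weighed.

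Against the wild type, 24 loci differed. The positive differences were 12.15 for CYP81D11, 5.33 for DOGT1, 4.95 for AT2G36770, 4.74 for AT2G17500, 4.52 for CML38, a calmodulin-like protein gene, 4.47 for IGMT1, an indole glucosinolate methyltransferase, and 4.11 for OPR1. They were 3.99 for AT5G14730, 3.83 for ERD5, 3.76 for the monooxygenase gene MO1, 3.66 for DJ1A, 3.56 for GSTU7, 3.34 for OPR2 and 3.19 for UGT73B1. They were 2.99 for the transporter gene ABCG34, 2.66 for DHAR2, 2.59 for AT1G14130, 2.48 for AT1G76520, 2.06 for AT1G75280, 2.06 for the auxin glucosyltransferase gene UGT74D1 and 1.85 for AT3G46600. Those with negative differences were MIPS1 at -2.43, GT18 at -2.03 and SGB1 at -2.001. For these loci each LC library of hpr1 lay outside its HC libraries.

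At 5 loci the called direction in hpr1 was opposite to that in each other mutant, and the smallest of the 3 differences was 4.07 for MYB48, 2.15 for XERICO, 2.02 for MEE11, 1.23 for WIP2 and -1.39 for AT2G03240. Among loci that moved further in hpr1 than in each other mutant, the smallest difference was 2.68 for MEE14, 2.52 for CYP71B4, 2.35 for UGT85A5 and 1.64 for ASD1 upwards. Downwards it was -5.83 for CYP71B22, -3.15 for HB1, -1.80 for LBD41, -1.52 for AGP20 and -0.85 for BAG1. The 3 differences share the 4 hpr1 libraries. Loci named here for a difference from the other mutants were not called different from the wild-type response.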

How the results depend on the processing

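For hpr1 LC vs HC the 3083 calls (1788 higher, 1295 lower) became 4733 (2690 and 2043) with the DESeq2 test, and keeping all rows as deposited gave 1729 (1031 and 698). Leaving out 1 hpr1 library gave 32 to 1821 calls, 22 to 1190 higher and 10 to 631 lower. With only the groups compared, 1142 were higher and 1402 lower, which turned the share of higher calls from 58.0% to 44.9%, and without hpr1 LC replicate 2 it was 81.6%. With the replicate block there were 2955 calls, which changed the call of 35 of the 166 named genes other than HPR1. The same-numbered hpr1 libraries deviated in opposite ways (r = -0.427 over 13690 loci), and a crossed replicate block, added after seeing the data, gave 3905 calls. Depth limits LC replicate 1: with counts thinned to 5911382 reads 2452 loci were called.

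The HPR1 transcript was not called when all rows were kept as deposited (1.31), thinned counts (0.93), the crossed replicate block (1.22), no low-count filter (1.23) or only the groups compared (1.30), and ranged from 0.59 to 1.79 without 1 library. Of the 166 called named genes other than HPR1, 163 stayed called with DESeq2, 114 with displaced rows kept, 17 without hpr1 HC replicate 1, 65 when HC replicate 2, 109 when LC replicate 1 and 70 when LC replicate 2 was left out, and none changed direction. The cause was not tested, except that leaving out a library leaves 1 in its group, which is then assumed to vary like the others.

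For the hpr1 response minus WT response, the 24 calls (21 higher, 3 lower) became 348 (272 and 76) with DESeq2, 15 (13 higher) with DESeq2 size factors in edgeR, 7 (6 and 1) when displaced rows were kept, 84 (78 and 6) with the crossed replicate block, 15 (12 higher) without a filter, 0 (0 and 0) with only the groups compared and 14 (0 lower) with the replicate block. Leaving out 1 library gave 1 to 207 calls, 1 to 151 higher and 0 to 56 lower. For the hpr1 response minus shm1 response, leaving out 1 library gave 2776 to 3868 higher calls. For the hpr1 response minus glyk1 response it gave 2093 to 4872 calls, 725 to 2222 higher and 1091 to 2650 lower, and thinned counts gave 1539 and no filter 1629 higher calls. For the hpr1 response minus pglp1 response it gave 2002 to 3344 higher calls.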

Other observations

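The authors' deposited table marks 447 loci as higher and 112 as lower between LC and HC in hpr1. In the authors' deposited table a total of 562 loci have a q-value under 0.01 for this comparison and 728 under 0.05. Of the 562, 479 were called here in the same direction. These values were not used in any test.

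Other promoter motifs were counted in the same windows as a description. The G-box CACGTG was present in 12.3% of promoters of loci that rose, 6.6% of those that fell and 7.68% of all. The W-box core TTGAC, bound by WRKY factors, was present in 56.6%, 47% and 50.5%. The evening element, AAAATA followed by TCT, was present in 4.2%, 1.63% and 2.82%.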
